A study of Mus musculus with 4 samples.

Results

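The aminoacyl-tRNA synthetase genes of mouse oocytes were followed through in vitro maturation with and without tubastatin A (TubA), a small molecule made to inhibit the deacetylase HDAC6. The members were 37 listed genes, found by matching Ensembl identifiers to GRCm38 symbols, out of 21957 genes in the table. They were described as 20 cytosolic genes and 17 genes set apart from them, which are the 16 symbols ending in ars2 and *Tarsl2*. All 37 had an entry of their own. A synthetase joins an amino acid to its tRNA, and the charged tRNA is then used by the ribosome. Most amino acids are served by a cytosolic enzyme and by a separate nuclear-encoded enzyme that is imported into mitochondria, while *Gars* and *Kars* each provide both forms. The protein of *Tarsl2* is a paralogue of the cytosolic threonyl enzyme, so its place among the mitochondrial symbols follows the naming rule only. A fully grown oocyte translates and degrades stored maternal mRNA during maturation, with little new transcription.

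The oocytes came from B6D2F1 hybrid females (C57BL/6 x DBA) aged 6 to 8 weeks that had been primed with gonadotropin. GV oocytes, in which the germinal vesicle is intact, were taken at 0 h of culture. MII oocytes were cultured for 12 h without TubA and were collected only if they had a polar body, while TubA-10 and TubA-20 oocytes were cultured for 12 h with 10 or 20 μM of TubA, doses that the sample titles and the methods share, called here the lower and the higher dose. The treatment field of the labels disagrees, with 20 μM entered at TubA-10 and 11 μM at TubA-20. TubA was dissolved in DMSO, and the labels call the controls untreated without naming a vehicle. The cumulus cells had been removed, and pooled oocytes made up 1 library for each condition. Without replicates no difference could be set against the spread between oocyte pools, so no p-value is given. The study describes the higher dose as one that blocks maturation, so a difference between TubA-20 and MII cannot be told apart from a difference in meiotic stage.

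Levels are FPKM (fragments scaled to transcript length and to all mapped fragments of the library), which allow genes to be compared per length. Differences between libraries are log2 ratios of FPKM + 1, and a gene was called when this ratio passed 2-fold. The added 1 hides much of a difference when a gene lies near or below 1 FPKM. FPKM is a share of a library, so less of a transcript per oocyte and fewer oocytes holding it cannot be told apart. The step between low FPKM values put the depth of MII at 1.61, of TubA-10 at 1.71 and of TubA-20 at 0.901 times that of GV. The read totals reported in the paper place TubA-20 slightly above GV instead, and both below MII and TubA-10. By either measure the values of TubA-20 and GV rest on fewer fragments than those of MII and TubA-10. All 12 oocyte markers were present in each library, with a summed level from 17408 FPKM in GV to 23869 in TubA-20, although in TubA-20 *Figla*, *Zp1*, *Zp2* and *Zp3* were more than 2-fold lower than in GV and *Gdf9* and *Oosp1* more than 2-fold higher. The 10 cumulus and granulosa markers summed to 15.4 FPKM in GV and 10.8 in MII, with 8.38 at the lower dose and 14.1 at the higher dose, and the 4 blood markers to at most 0.0347. *Foxl2* was at 0 in every library, and in TubA-20 the values of 4 cumulus and granulosa markers were below those in GV (*Inha*, from 7.50 to 0.239, *Inhba*, *Fshr* and *Amh*) and those of 5 above (*Cyp19a1*, from 6.14 to 10.3, *Tnfaip6*, *Ptx3*, *Has2* and *Ptgs2*). The part of such cells in the differences from GV was not tested. In the 10199 genes with a mean of at least 1 FPKM over the libraries, which served as background, the median log2 difference from GV was 0.07 in MII, 0.10 at the lower dose and 0.12 at the higher dose. Of the members 31 passed that mean, and *Hars2*, *Mars2*, *Nars2*, *Pars2*, *Vars2* and *Yars* did not.

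In GV oocytes the highest member was *Qars*, which charges tRNA with glutamine, followed by *Rars* for arginine, the mitochondrial phenylalanine gene *Fars2*, and *Farsb*. *Qars* (chromosome 9, 108507706 to 108515941) was at 246 FPKM in GV and 103 in MII, with 119.7 at the lower dose and 98.0 at the higher dose. *Rars* (chromosome 11, 35808381 to 35834506) was at 118, 44.0, 48.3 and 30.8 FPKM in the same order of libraries. In TubA-20 the order of levels had changed, with *Fars2* at 190 FPKM, *Farsb* at 138 and *Qars* at 98.0, and *Rars* had gone from the second to rank 11 of the members. With 1 library each, neighbours in these orders cannot be separated. The median cytosolic gene was at 40.3 FPKM in GV and 27.3 in MII, with 28.4 at the lower dose and 30.4 at the higher dose, while the median mitochondrial gene was at 2.42, 1.79, 1.94 and 1.46. In each library 16 of the 20 cytosolic genes reached 10 FPKM, which only 1 or 2 of the 17 others did.

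**Figure D1:**
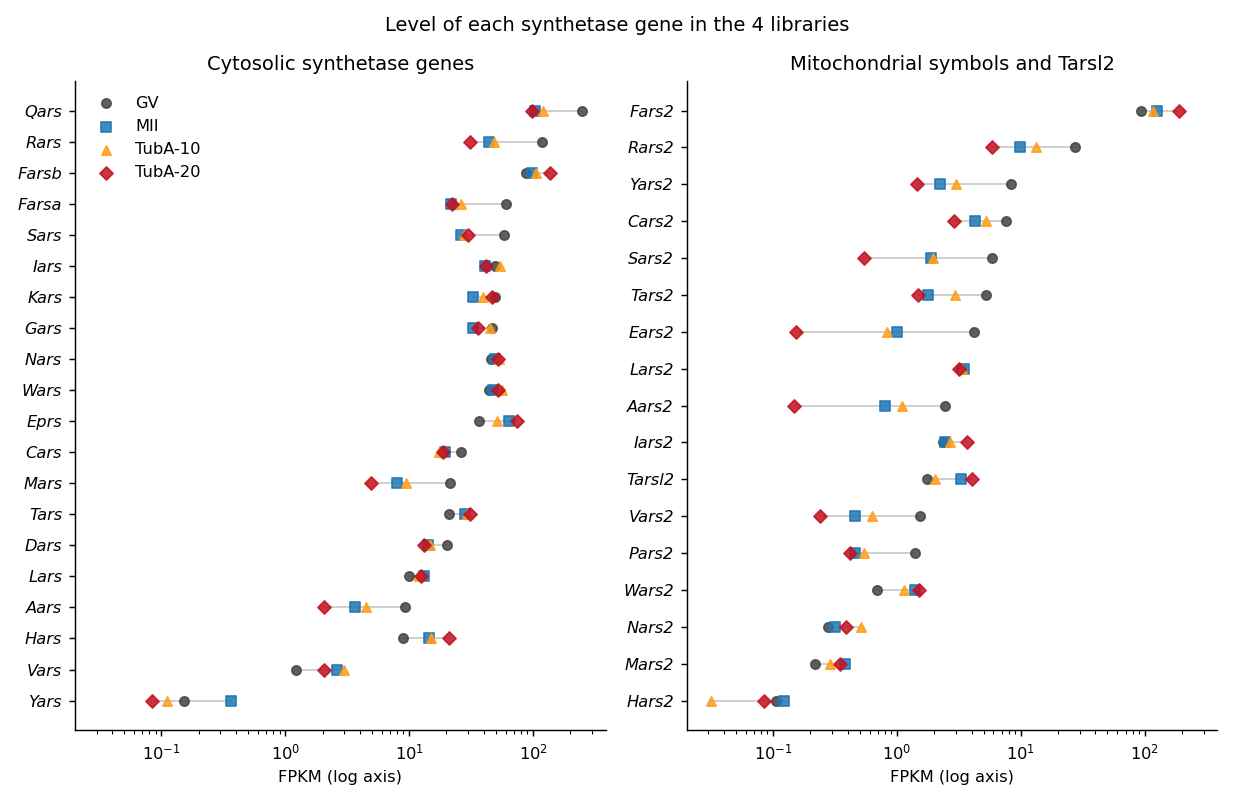
FPKM on a log axis for each of the 37 synthetase genes, with 1 point for each library and the genes ordered by their GV level. Most cytosolic genes lie above 10 FPKM, *Yars* lies below 0.4, and *Fars2* stands far above the other mitochondrial genes in all 4 libraries.

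A set of cytosolic genes was lower in every cultured library than in GV. *Mars* (chromosome 10, 127296221 to 127311786), the methionine gene that also serves initiator tRNA, was at 21.5 FPKM in GV and 7.91 in MII, with 9.49 at the lower dose and 4.88 at the higher dose. Its log2 difference from GV was −1.34 in MII, −1.10 at the lower dose and −1.94 at the higher dose. The last was the lowest cytosolic value in TubA-20 with 1 added, while a pseudocount of 0.1 gave −2.12 for *Mars* and −2.13 for *Aars*. *Rars* had differences of −1.40, −1.27 and −1.90, and *Qars* of −1.25, −1.04 and −1.32. *Mars*, *Rars* and *Qars* were each more than 2-fold lower in all 3 cultured libraries, although with equal *Gapdh* the TubA-10 value was −0.86 for *Mars* and −0.77 for *Qars*. *Aars* (chromosome 8, 111033144 to 111057664), the alanine gene, was at 9.33 FPKM in GV and 3.67 in MII, with 4.51 at the lower dose and 2.05 at the higher dose, which gave −1.14, −0.91 and −1.76, the first of these −0.96 with equal *Gapdh*. The annotation of *Aars* shares 1326 bases on the same strand with *Exosc6*, itself far lower in TubA-20 (0.229 FPKM) than in GV (4.11), so its values are uncertain. *Sars*, for serine, was at 58.3, 26.3, 27.6 and 30.04 FPKM in the same library order. It was past 2-fold in MII (−1.12) and TubA-10 (−1.05) but not in TubA-20 (−0.93), and equal *Gapdh* left −0.90 in MII and −0.79 in TubA-10. With the median gene at 0 it passed in TubA-20 too (−1.15). By FPKM its level at the higher dose was not the lowest, unlike those of *Mars* and *Rars*. *Mars* shares 68 bases with the antisense gene *Ddit3*, which also was lower in every cultured library, and the counting used strand.

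Other cytosolic genes were higher after culture. *Hars* (chromosome 18, 36766528 to 36783205), the histidine gene, was at 8.97 FPKM in GV and 14.5 in MII, with 15.1 at the lower dose and 20.9 at the higher dose. Its log2 difference from GV was 0.64, 0.69 and 1.14, and it was the only cytosolic gene more than 2-fold higher in TubA-20. With the median gene at 0, a larger shift than the background median, it fell short, at 0.92. *Eprs* (chromosome 1, 185363044 to 185428360) encodes a fused enzyme for glutamate and proline and was at 36.3 FPKM in GV and 63.5 in MII, with 51.3 at the lower dose and 73.6 at the higher dose. Its differences were 0.79, 0.49 and 0.999, the last just short of 2-fold. It passed with a pseudocount of 0.1 (1.02), equal upper quartiles (1.03) or equal *Gapdh* (1.07), and was 0.78 with the median gene at 0. *Tars*, for threonine, was at 21.0, 28.3, 29.1 and 31.0 FPKM in the same library order, with differences between 0.42 and 0.54. *Vars*, for valine, was low in all libraries, at 1.22, 2.61, 2.96 and 2.06 FPKM. It did not pass 2-fold with 1 added, but in plain FPKM it was at 2.15 times GV in MII and 2.43 times in TubA-10. A pseudocount of 0.1 gave 1.05 and 1.22 for these 2 libraries.

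A further 9 cytosolic genes did not pass 2-fold against GV in any library, and for *Gars*, *Iars*, *Kars*, *Nars* and *Wars* the sign of at least 1 difference turned with the scaling. *Nars* (asparagine) lay between 45.6 and 53.3 FPKM, *Wars* (tryptophan) between 44.2 and 56.3, and *Iars* (isoleucine) between 40.6 and 54.5. *Lars* (leucine) lay between 10.0 and 13.2 FPKM, and *Gars* (glycine) between 32.7 and 47.0. *Kars* (lysine) was at 49.2 FPKM in GV and 32.6 in MII, with 39.4 at the lower dose and 46.9 at the higher dose, so that TubA-20 lay nearest to GV. *Cars* (cysteine) went from 26.4 FPKM in GV to between 17.5 and 19.6 in the cultured libraries, and *Dars* (aspartate) from 20.1 to between 13.1 and 14.6. A processed pseudogene, *Kars-ps1*, is annotated, so fragments of *Kars* may be shared with it. *Yars*, the cytosolic tyrosine gene, read 0.153 FPKM in GV, and no library exceeded 0.366 (MII) or fell below 0.0847 (TubA-20), too low for a statement about direction.

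The phenylalanine genes differed from each other in direction. The cytosolic enzyme is built from α subunits, encoded by *Farsa* (chromosome 8, 84856989 to 84869257), and β subunits, encoded by *Farsb* (chromosome 1, 78417975 to 78488897), whereas *Fars2* (chromosome 13, 36117412 to 36726280) encodes the single-chain mitochondrial enzyme. *Farsa* was at 60.9 FPKM in GV and 21.6 in MII, with 25.97 at the lower dose and 22.1 at the higher dose, with log2 differences from GV of −1.45, −1.20 and −1.43, the second of them −0.94 with equal *Gapdh*. *Farsb* was at 87.8, 98.8, 105 and 138 FPKM, with differences of 0.17, 0.26 and 0.65. The ratio of *Farsb* to *Farsa*, in FPKM, was 1.44 in GV and 4.57 in MII, with 4.05 at the lower dose and 6.26 at the higher dose. A ratio inside a library does not move with its scaling, so the subunit genes differed from each other in every cultured library more than in GV. *Fars2* was at 92.6, 126, 116 and 190 FPKM, with differences of 0.44, 0.32 and 1.03, and it was more than 2-fold higher in TubA-20. No other mitochondrial gene was on the scale with 1 added, but in plain FPKM *Tarsl2* was at 2.33 and *Wars2* at 2.15 times the GV level in TubA-20, beside 2.05 for *Fars2*. Setting the median gene to 0 gave 0.80 for *Fars2* in TubA-20.

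The ends of these 3 messages are shown because they belong to 1 amino acid and differ in direction, with *Kars* and *Qars* for comparison. Each line is a window of 30 bases of the annotated 3′ UTR on the mRNA strand (GENCODE transcripts, GRCm38), written 5′ to 3′. Capitals mark the polyadenylation hexamer AATAAA and the cytoplasmic polyadenylation element (CPE) like motifs TTTTAT and TTTTAAT, which are known to be bound by CPEB1 in oocytes.
Farsa: ctgcaggccagctgTTTTAATAAAgtgggc
Farsb: ggaggagatgagttggtaAATAAAgcaagc
Fars2: tactttaggacgtcacgaAATAAAggatca
Kars: TTTTATtcctcgttaccaAATAAAtcattt
Qars: cactccacactccgtttcAATAAAgaataa
Each is from the principal transcript, which for *Fars2* ends inside the annotated gene. The windows lie at chr8:84869197-84869226 for *Farsa* (plus strand), chr1:78417986-78418015 for *Farsb* (minus strand), chr13:36537551-36537580 for *Fars2* (plus strand), chr8:111993452-111993481 for *Kars* (minus strand) and chr9:108515898-108515927 for *Qars* (plus strand). *Farsa* holds TTTTAAT overlapping the hexamer, and *Kars* holds TTTTAT starting 18 bases before it. Neither motif is in the annotated 3′ UTR of *Farsb*, *Fars2* or *Qars*. A match is a description of letters and was not tested as a site.

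**Figure D2:**
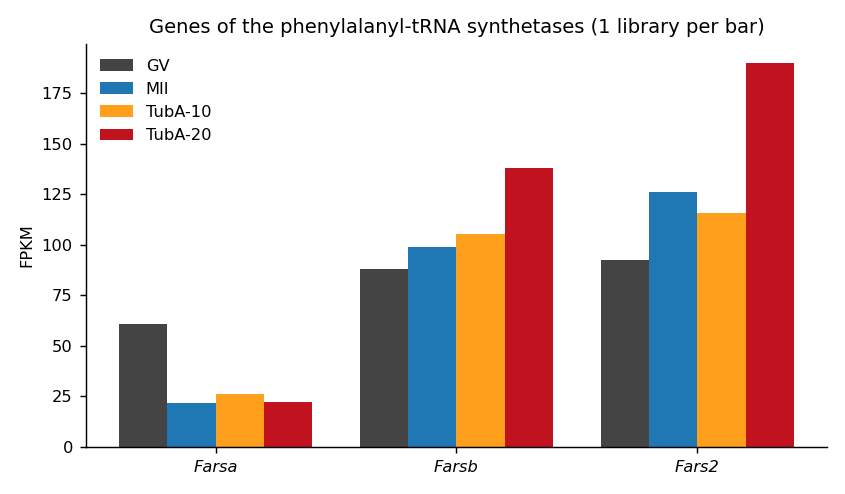
FPKM (bars from 0) of the phenylalanyl-tRNA synthetase genes *Farsa*, *Farsb* and *Fars2* in the 4 libraries, 1 library for each bar. *Farsa* goes from 60.9 in GV to between 21.6 and 25.97, while *Farsb* and *Fars2* are highest in TubA-20, at 138 and 190.

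Of the 17 mitochondrial genes, 9 were highest in GV and lowest in TubA-20. In the background 36.5% of the genes were highest in GV and 36.1% lowest in TubA-20, and the share with both was not counted. *Ears2* (chromosome 7, 122037213 to 122067263), the glutamate gene, was at 4.17 FPKM in GV and 0.997 in MII, with 0.827 at the lower dose and 0.153 at the higher dose. Its log2 differences from GV were −1.37, −1.50 and −2.16, and without the added 1 its GV level was 27.2 times that of TubA-20. *Sars2* (chromosome 7, 28741992 to 28753871) was at 5.85, 1.87, 1.94 and 0.544 FPKM, with differences of −1.26, −1.22 and −2.15. *Rars2* (chromosome 4, 34614957 to 34660167), the second mitochondrial gene by level in GV, was at 27.4 FPKM in GV and 9.75 in MII, with 13.2 at the lower dose and 5.85 at the higher dose. Its differences were −1.40, −1.01 and −2.05. *Yars2* (chromosome 16, 16302965 to 16309640) was at 8.34, 2.24, 2.997 and 1.46 FPKM, with −1.53, −1.22 and −1.93. These 4 genes were more than 2-fold lower than GV in each cultured library, although *Rars2* in TubA-10 was at −0.76 with equal *Gapdh*.

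*Tars2* was at 5.23 FPKM in GV and 1.79 in MII, with 2.93 at the lower dose and 1.485 at the higher dose, and passed 2-fold in MII (−1.16) and TubA-20 (−1.33). *Aars2* (2.42, 0.801, 1.10 and 0.147 FPKM), *Cars2* (7.56, 4.25, 5.26 and 2.89) and *Vars2* (1.54, 0.462, 0.630 and 0.238) passed it in TubA-20, at −1.58, −1.14 and −1.04, and not in MII or TubA-10. For *Aars2* and *Vars2* this rests on the added 1, since a pseudocount of 0.1 gave −1.48 and −1.54 in MII and −1.07 and −1.17 in TubA-10. *Pars2* went from 1.41 FPKM in GV to 0.421 in TubA-20, a difference of −0.76 that reads −1.72 with a pseudocount of 0.01. For *Aars2*, *Ears2*, *Sars2* and *Vars2* the TubA-20 values lie below 1 FPKM, in a library with fewer fragments than MII or TubA-10. The 16 mitochondrial genes other than *Fars2* summed to 72.6 FPKM in GV and 34.1 in MII, with 39.4 at the lower dose and 26.4 at the higher dose. With *Fars2* the sums were 165, 160, 155 and 216, so *Fars2* alone held most of the mitochondrial synthetase signal and turned the order of the libraries.

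The other mitochondrial symbols did not share this pattern. *Lars2* lay between 3.17 and 3.50 FPKM in all 4 libraries. *Iars2* (chromosome 1, 185284726 to 185329396) was at 2.35 FPKM in GV and 2.45 in MII, with 2.67 at the lower dose and 3.66 at the higher dose, with a difference of 0.48 in TubA-20. It lies 33647 bases from *Eprs* on the opposite strand. *Wars2* was at 0.694, 1.39, 1.13 and 1.49 FPKM, and *Tarsl2* at 1.73, 3.31, 2.03 and 4.03, with a difference of 0.88 in TubA-20. *Tarsl2* overlaps *Tm2d3* by 923 bases on the same strand. Since *Tm2d3* read 702 FPKM in GV, with 1126 in TubA-20, the values of *Tarsl2* are uncertain. *Hars2* (0.0314 to 0.123 FPKM), *Mars2* (0.217 to 0.378) and *Nars2* (0.276 to 0.517) stayed low. *Hars2* overlaps the start of *Hars* by 198 bases on the opposite strand.

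Counted against GV, 11 of the 37 members were more than 2-fold lower in MII and 0 higher, where 17.2% of the background genes were lower and 6.5% higher. In TubA-10, 9 members were lower and 0 higher, against 11.5% and 1.53% of the background, but 4 were lower with equal *Gapdh*, 6 with equal FPKM sums and 14 with a pseudocount of 0.01. In TubA-20, 13 were lower and 2 higher, against 23.9% and 16.2%, with 5 higher under a pseudocount of 0.1 and 0 with the median gene at 0. The background holds only genes with a mean of at least 1 FPKM, and the 31 members that passed the same filter had 11 lower in MII (35.5%), 9 at the lower dose (29.0%) and 12 at the higher dose (38.7%). Over all 21957 genes, without the filter, 8.34% were lower in MII, 5.6% at the lower dose and 11.7% at the higher dose. Those higher made up 3.05%, 0.742% and 7.61% in the same order. As shares of the members, those lower were 29.7% in MII, 24.3% at the lower dose and 35.1% at the higher dose, while the higher ones made up 5.41% in TubA-20. These comparisons share the GV library. The median log2 difference of the cytosolic genes was −0.35 in MII, −0.05 at the lower dose and −0.17 at the higher dose, and that of the mitochondrial genes −0.71, −0.45 and −0.76, beside background medians of 0.07, 0.10 and 0.12. The cytosolic median was −0.13 in MII and 0.09 at the lower dose with equal *Gapdh*, and −0.09 and 0.04 without *Gars* and *Kars*, so its sign at the lower dose turned with these choices. Of the cytosolic genes 6 were lower in MII and 5 at each dose. Of the mitochondrial genes 5 were lower in MII, 4 at the lower dose and 8 at the higher dose. With *Tarsl2* left out the mitochondrial medians were −0.71, −0.55 and −0.90 in the same order, and the genes lower were again 5, 4 and 8. Without genes under a mean of 1 FPKM the mitochondrial median in TubA-20 was −1.23. *Aars2* and *Ears2* reached that mean through their GV levels, 2.42 and 4.17 FPKM, beside 0.147 and 0.153 in TubA-20. The filter thus favours genes that are high in GV. Nothing is drawn from the lower median, or from the higher shares among the 31 members.

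**Figure D3:**
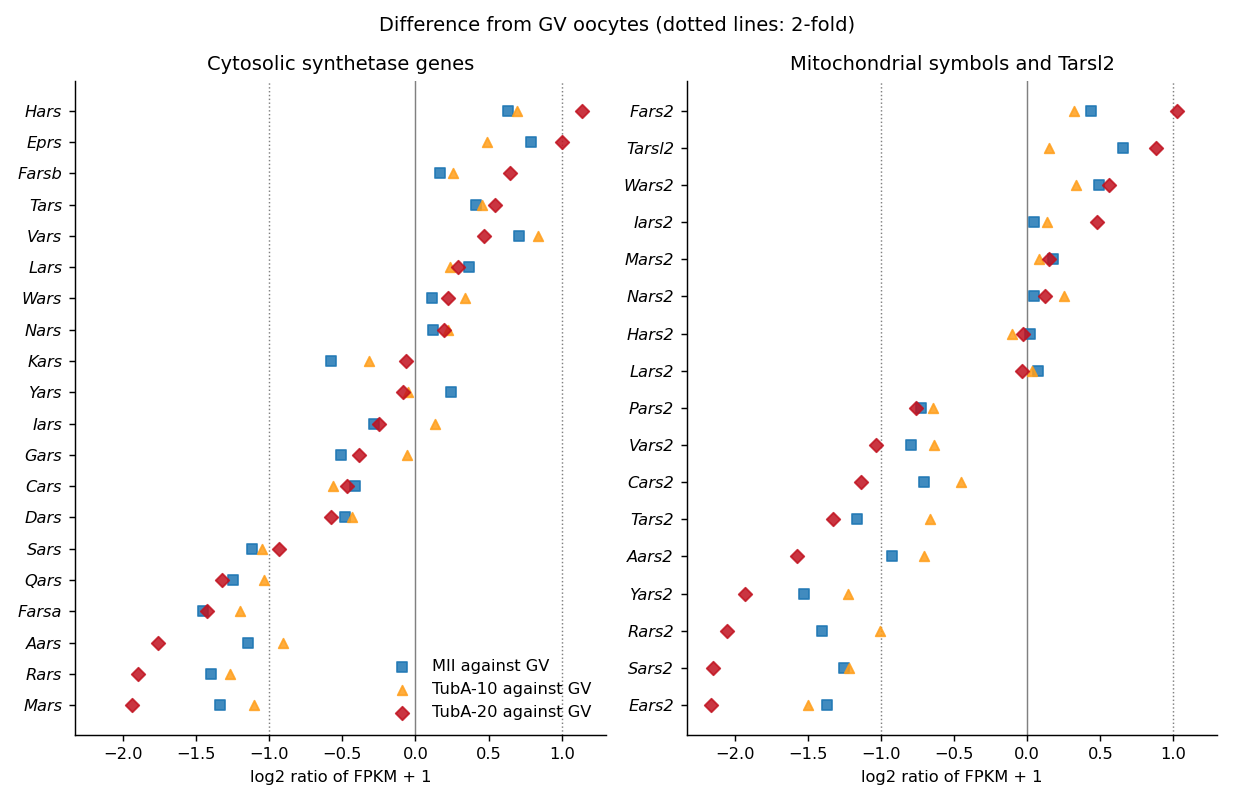
Log2 ratio of FPKM + 1 against GV for MII, TubA-10 and TubA-20, with the 37 genes ordered by TubA-20 and dotted lines at 2-fold. In TubA-20, 5 cytosolic and 8 mitochondrial genes lie left of the lower line, while *Hars* and *Fars2* lie right of the upper line.

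The fold type of the enzymes and their assembly into complexes were compared next. Class I enzymes share a Rossmann fold and class II enzymes an antiparallel β-sheet core. *Eprs* holds a glutamate part of class I and a proline part of class II and was counted in class I, sums included. Of 19 class I genes, 8 were more than 2-fold lower than GV and 0 higher in TubA-20, and of 18 class II genes 5 were lower and 2 higher. Those lower were 42.1% of class I and 27.8% of class II, beside 23.9% of the background, and the medians were −0.25 and −0.22. By summed level, class I read 609 FPKM in GV and 368 in MII, 402 at the lower dose and 353 at the higher dose, and class II 518, 457, 485 and 589. *Qars* and *Rars* made up much of the first sum and *Fars2* and *Farsb* of the second. The multi-synthetase complex is a cytosolic particle that holds 8 of the listed genes' products. In MII 6 of these 8 lay below GV, 3 of them by more than 2-fold (*Mars*, *Qars* and *Rars*), and *Eprs* and *Lars* lay above. Of the 10199 background genes, 4794 lay below GV in MII. Of the other 12 cytosolic genes 3 passed 2-fold downward in MII as well (*Aars*, *Farsa* and *Sars*), so the shares were 37.5% and 25%, beside 17.2% of the background. The median of the 8 was −0.53 in MII and −0.41 in TubA-20, while that of the other 12 was 0.11 and 0.05. The 0.11 lies between *Wars* and *Nars*, which read −0.03 and −0.02 in MII with the median gene at 0. The 0.05 lies between *Nars* and *Yars*, and *Yars* was too low for a statement about direction.

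Against MII, oocytes of the same culture time, no member passed 2-fold at either dose. In TubA-10, 0 members passed 2-fold in either direction, where 1.05% of the background was higher and 0.235% lower. In TubA-20 also 0 passed, against 0.608% higher and 5.22% lower. The median log2 difference from MII was 0.12 for the cytosolic and 0.08 for the mitochondrial genes at the lower dose, and 0.03 and −0.11 at the higher dose. The lowest values in TubA-20 against MII were those of *Sars2* (−0.89), *Ears2* (−0.79), *Rars2* (−0.65), *Aars2* (−0.65) and *Aars* (−0.62), and the highest those of *Fars2* (0.59), *Kars* (0.51), *Hars* (0.50) and *Farsb* (0.48). Because *Aars2*, *Ears2* and *Sars2* lie near or below 1 FPKM, pseudocounts of 0.1 or 0.01 carried them past 2-fold, with *Ears2* at −2.11 and −2.62. In plain FPKM the MII level was 6.501 times that of TubA-20 for *Ears2*, 5.45 times for *Aars2* and 3.43 times for *Sars2*. The cytosolic *Yars*, at 0.366 FPKM in MII and 0.0847 in TubA-20, also passed with these pseudocounts (−1.33 and −1.99). Its MII level was 4.32 times that of TubA-20.

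Between the doses, 1 member passed 2-fold in TubA-20 against TubA-10, *Rars2* at −1.05, with 11.8% of the background lower and 1.27% higher. The lower count was 6 with a pseudocount of 0.1, 7 with 0.01 and 5 with equal *Gapdh*, and in plain FPKM the TubA-10 level was 7.47 times that of TubA-20 for *Aars2*, 5.39 times for *Ears2* and 3.57 times for *Sars2*. On the scale with 1 added, *Sars2* (−0.93), *Aars2* (−0.87), *Aars* (−0.85) and *Mars* (−0.84) came next, and *Tarsl2* (0.73), *Fars2* (0.71) and *Eprs* (0.51) were highest. The order GV, TubA-10, MII and TubA-20 from highest to lowest was found in 13 of the 37 members (35.1%), beside 22.6% of the background. It held for 8 of the 17 mitochondrial genes (*Aars2*, *Cars2*, *Pars2*, *Rars2*, *Sars2*, *Tars2*, *Vars2* and *Yars2*) and for 5 of the 20 cytosolic genes (*Aars*, *Dars*, *Mars*, *Qars* and *Rars*). TubA-20 was the lowest library for 16 members (43.2%, background 36.1%) and the highest for 8 (21.6%, background 38.6%). GV was the highest for 19 (51.4%, background 36.5%) and the lowest for 14 (37.8%, background 45.5%). MII was the highest for 5 and the lowest for 5 (13.5% each, background 12.3% and 11.3%), and TubA-10 the highest for 5 and the lowest for 2 (13.5% and 5.41%, background 12.6% and 7.15%). Among the 31 members that passed the filter of the background, the order was found in 11 (35.5%). GV was the highest for 17 of them and the lowest for 12, and MII the highest for 2 and the lowest for 5. TubA-10 was the highest for 4 and the lowest for 1, and TubA-20 the highest for 8 and the lowest for 13. *Aars2* and *Ears2* are among these 31 through their GV levels, so nothing is drawn from the filtered counts.

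For 13 amino acids a cytosolic and a mitochondrial gene could be set side by side within a library, a ratio that scaling changes only through the pseudocount. The cytosolic gene was the higher one for 11 of the 13 in GV and for 12 in each cultured library. In every library the mitochondrial *Yars2* was above the cytosolic *Yars*, with a log2 ratio of *Yars* to *Yars2* of −3.02 in GV and −1.25 in MII, with −1.85 at the lower dose and −1.18 at the higher dose. *Vars* and *Vars2* were nearly level in GV (−0.20), and the ratio was between 1.28 and 1.31 after culture. The median log2 ratio over the pairs was 2.06 in GV and 2.69 in MII, with 2.94 at the lower dose and 2.34 at the higher dose. From GV to TubA-20 the ratio went up in 9 pairs and down in 4. It went up most for *Tars* and *Tars2* (from 1.82 to 3.69), where the cytosolic gene was higher and the mitochondrial gene lower than in GV. It went down most for *Mars* and *Mars2* (from 4.21 to 2.12), where *Mars* was lower while *Mars2* stayed below 0.4 FPKM.

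**Figure D4:**
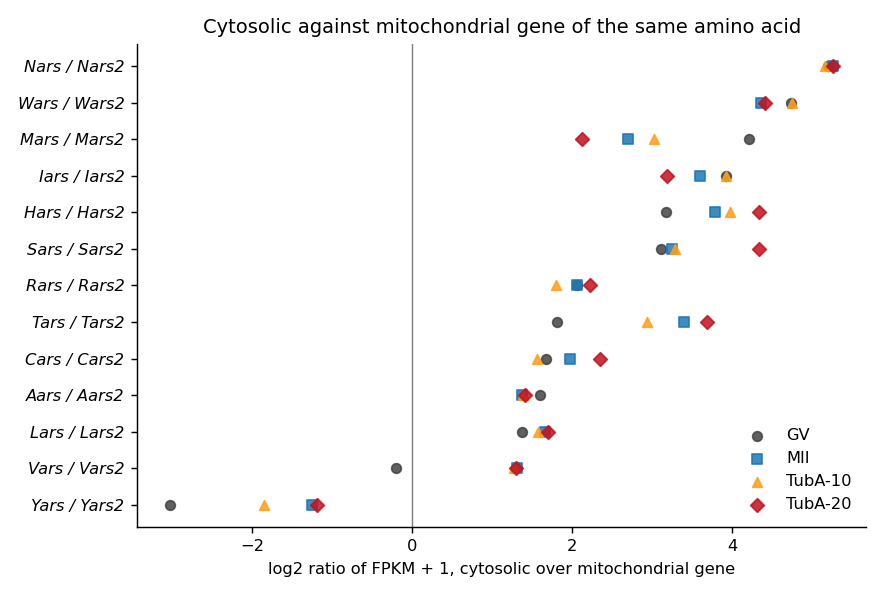
Log2 ratio of FPKM + 1 of the cytosolic over the mitochondrial gene for 13 amino acids in each of the 4 libraries. All points of *Yars* and *Yars2* lie left of 0, and the ratio of *Sars* to *Sars2* is near 3.1 to 3.3 in GV, MII and TubA-10 and 4.33 in TubA-20.

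The 3′ UTR was examined because regulation of stored mRNA acts largely through it. The median annotated 3′ UTR was 354 bases over the members and 927 over 10029 background genes with one, while the median coding length was 1770 and 1347 bases. The members thus had shorter 3′ UTRs and longer coding sequences at the median. The 13 members more than 2-fold lower than GV in TubA-20 had a median 3′ UTR of 195 bases, and the other 24 one of 683. Within the mitochondrial genes these medians were 224.5 and 1433 bases, and across these 17 genes the length had a Spearman rho of 0.59 with the log2 difference of TubA-20 and 0.63 with that of MII. Across the cytosolic genes the rho was 0.04 and 0.11, and across the background 0.29 and 0.33. Of these 17 genes, *Mars2* with 9470 bases, *Nars2* with 2045 and *Hars2* with 1433 lie below 1 FPKM in every library, where the added 1 holds their log2 difference near 0, and *Hars2* is itself the median of 1433. Over the 12 mitochondrial genes with a mean of at least 1 FPKM, a set chosen after seeing the data, the rho was 0.41 for TubA-20 and 0.62 for MII, and the median lengths were 195 bases for the 7 lower genes and 986 for the other 5. *Aars2* and *Ears2*, both among these 7, reached the mean through their GV levels, so the filter is not independent of the difference. Whole transcript length gave coefficients as high, 0.60 for TubA-20 and 0.62 for MII over the 17 genes and 0.61 and 0.73 over the 12, and coding length gave −0.10 and −0.05 over the 17 and 0.03 and 0.10 over the 12. Transcript length includes the 3′ UTR, so these coefficients do not separate them. The coefficients are across genes of the same libraries and have no p-value. *Fars2* with 154 bases went against the mitochondrial pattern, and so did *Aars* with 2460 bases among the cytosolic genes that were lower.

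A CPE-like motif (TTTTAT or TTTTAAT, mRNA strand only, overlap with the hexamer allowed) was present in the 3′ UTR of 15 of the 37 members, 40.5% beside 60.2% of the background. AATAAA was present in 83.8% and 81.2%. In the last 100 bases the CPE-like motifs were found in 8 members, 21.6% beside 19.9%. Background genes with the motif had a median log2 difference from GV of 0.46 in TubA-20 and those without it −0.64, and the members 0.15 and −0.62. Among the mitochondrial genes the TubA-20 medians were 0.31 for the 6 with the motif and −1.14 for the 11 without it, and among the cytosolic genes −0.07 for the 9 with it and −0.25 for the 11 without it. In MII the cytosolic medians ran the other way, at −0.48 with the motif and −0.28 without it. For the motif in the last 100 bases the TubA-20 medians were −0.50 with it and −0.25 without it over all members, −0.93 and −0.09 over the cytosolic genes, 0.15 for 3 and −0.90 for 14 of the mitochondrial genes, and 0.60 and −0.04 in the background. The mitochondrial 0.15 is the value of *Mars2*, below 1 FPKM in every library, and for mitochondrial genes with a mean of at least 1 FPKM the medians were −0.59 for 2 with the motif and −1.23 for 10 without it. These 10 include *Aars2* and *Ears2*, which reached the mean through their GV levels. In these last 100 bases the cytosolic genes, 5 of them with the motif, ran opposite to the background in TubA-20. The motif is also commoner in long 3′ UTRs, with a median of 1531 bases with it and 371 without it in the background, so motif and length cannot be told apart here.

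**Figure D5:**
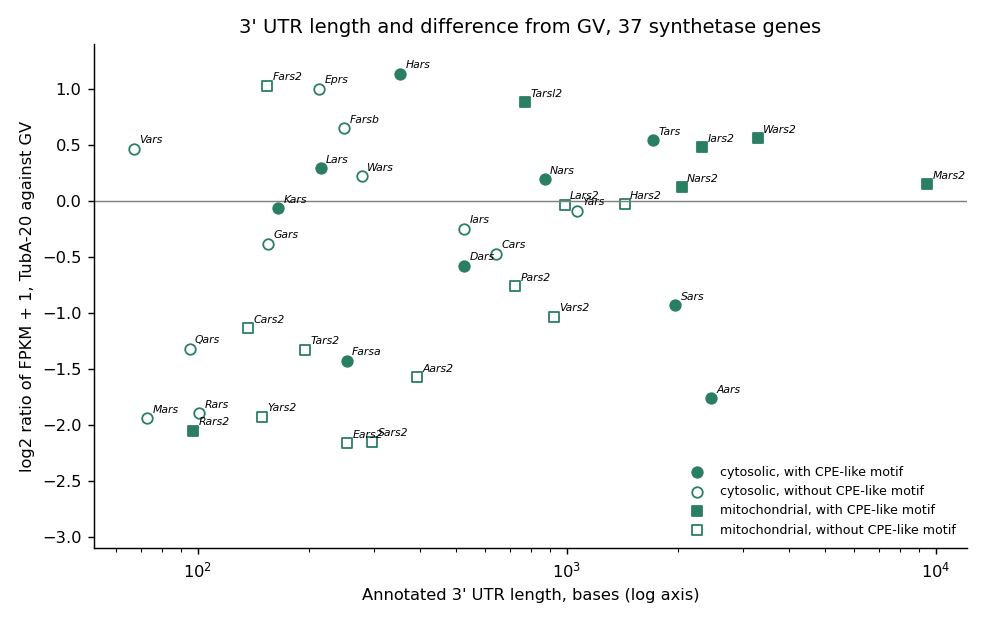
Annotated 3′ UTR length in bases (log axis) against the log2 ratio of FPKM + 1 in TubA-20 over GV for the 37 members, with filled symbols for genes that have a CPE-like motif. The mitochondrial genes with the longest 3′ UTRs (*Iars2*, *Wars2*, *Nars2* and *Mars2*, of which *Nars2* and *Mars2* are below 1 FPKM) lie above 0. *Hars2* with 1433 bases and *Lars2* with 986 lie just below 0, at −0.03 each. The 8 mitochondrial genes that were more than 2-fold lower have between 97 and 923 bases.

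Genes that work with the synthetases were taken from lists by role. Of the scaffold genes of the multi-synthetase complex, *Aimp2* was at 72.4 FPKM in GV and 14.7 in MII, with 20.0 at the lower dose and 12.3 at the higher dose, *Aimp1* at 47.1, 29.9, 25.6 and 38.0, and *Eef1e1* at 137, 107, 174 and 78.8. *Aimp2* alone was more than 2-fold lower than GV in TubA-20. Elongation factor 1 brings charged tRNA to the ribosome, and 3 of its 4 genes (*Eef1a1*, *Eef1d* and *Eef1g*) were more than 2-fold lower in each cultured library. *Eef1d* went from 865 FPKM in GV to 61.7 in TubA-20, *Eef1a1* from 509 to 60.1, and *Eef1b2* stayed at 205 and 221. Among 5 mitochondrial partners, the elongation factor gene *Tufm* was lower by more than 2-fold (21.4, 5.22, 5.25 and 2.54 FPKM in the same library order). The amidotransferase genes *Qrsl1*, *Gatb* and *Gatc*, which make mitochondrial glutaminyl-tRNA, lay between 0.895 and 2.17 FPKM throughout.

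*Aarsd1*, related to the editing domain of the alanyl enzyme, was at 80.9 FPKM in GV and 18.3 in MII, 22.7 at the lower dose and 8.07 at the higher dose. *Dtd1*, *Dtd2* and *Prorsd1* of the same list did not pass 2-fold against GV in any library. *Pstk*, which phosphorylates seryl-tRNA on the way to selenocysteine, went from 40.6 to 17.3, 18.8 and 8.50. *Sepsecs*, listed with it, was at 12.5, 13.4, 11.3 and 16.1 FPKM in the same library order. *Trnt1*, which adds the CCA end to tRNA, was higher in the cultured libraries (50.0, 106, 95.8 and 110 FPKM in the same order). Over the 20 genes of these lists, 7 (35%) were more than 2-fold lower in each cultured library, beside 17.2% of the background in MII, 11.5% at the lower dose and 23.9% at the higher dose. *Trnt1* alone was more than 2-fold higher, in MII and TubA-20 but not in TubA-10, where its log2 difference was 0.93. Cytosolic synthetase genes are known targets of the transcription factor ATF4 in the amino acid response. Of 15 genes of that response, 3 were more than 2-fold lower than GV in TubA-20 (*Atf4*, *Ddit3* and *Phgdh*) and 1 higher (*Eif2ak4*, from 16.0 to 37.6 FPKM). These shares, 20% and 6.67%, lay below those of the background, 23.9% and 16.2%. By sign, 6 of the 15 lay above GV in TubA-20 and 9 below. *Slc7a11* (0.96), *Mthfd2* (0.89) and *Slc3a2* (0.80) were higher there without passing 2-fold. In MII and in TubA-10, 2 of the 15 were more than 2-fold lower (13.3%), beside 17.2% and 11.5% of the background. In these libraries 0 were higher, beside 6.5% and 1.53%. *Atf4* was at 97.0 FPKM in GV and 64.1 in MII, with 96.1 at the lower dose and 37.6 at the higher dose, and *Asns* between 0.707 and 2.15.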

How the data were processed

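Polyadenylated RNA of pooled oocytes was captured on oligo(dT) and read as pairs (TruSeq stranded kit), with 1 library per condition. The authors deposited FPKM values, per the paper made by cufflinks with a first-strand library type on mm10, so they are already divided by transcript length and mapped fragments. The processing notes of the submitters name STAR 2.5.0, Cufflinks and Cuffdiff 2.2.1. Capture by poly(A) can lose messages with short tails, so a shorter tail and fewer molecules cannot be told apart. Of 21959 entries, 165 had no symbol and were kept under their identifier, and entries sharing a symbol were summed. The members and lists were chosen with earlier results of these data known. Any of the 37 members and the listed partner and marker genes could be named, and *Exosc6* and *Tm2d3* were added after their values were seen because they overlap members. Coordinates and transcripts came from GENCODE M21 (GRCm38), with 1 principal transcript per gene for 3′ UTRs. Log2 ratios used a pseudocount of 1 FPKM and calls a 2-fold threshold. Alternatives were pseudocounts of 0.1 and 0.01, minimum means of 1 and 5 FPKM, thresholds of 1.5-fold and 3-fold, and 4 scalings. Scripts (Python 3.11.15, numpy 2.4.6, pandas 2.3.3, matplotlib 3.10.9) were tested on simulated data.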

Additional observations from a re-analysis of the deposited data

How the results depend on the processing

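No paired analysis was possible because each condition had 1 library. Medians counted as moved when they shifted by more than 0.363 log2, the robust SD over background genes between TubA-10 and MII. Setting the median gene to 0 lowers differences from GV by 0.14 (MII), 0.16 (TubA-10) and 0.23 (TubA-20), while equal FPKM sums raise MII by 0.13 and equal *Gapdh* raises MII by 0.23 and TubA-10 by 0.27. The mitochondrial median in TubA-20 against GV was −1.36 with a pseudocount of 0.1, −1.39 with 0.01 and −1.23 for members with a mean of at least 1 FPKM. In TubA-10 against GV it was −0.83 with 0.01, and in TubA-20 against TubA-10 −0.66 for a mean of at least 1 FPKM. Both values under that filter include *Aars2* and *Ears2*, which reached the mean through their GV levels. No other median of the cytosolic or mitochondrial genes moved by as much, although the cytosolic median in TubA-10 against GV turned from −0.05 to 0.09 with equal *Gapdh* and to 0.04 without *Gars* and *Kars*, and that in TubA-20 against MII from 0.03 to −0.12 with equal *Gapdh*.

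Counts of members past 2-fold depended more on the settings. In MII against GV, 1 member was higher with a pseudocount of 0.1, 2 with 0.01, 1 with equal *Gapdh* and 4 past 1.5-fold, while 6 were lower for a mean of at least 5 FPKM and 0 past 3-fold. In TubA-10 against GV, 1 was higher with either pseudocount or equal *Gapdh* and 2 past 1.5-fold, and 14 were lower with 0.01, 4 with equal *Gapdh*, 14 past 1.5-fold and 0 past 3-fold. In TubA-20 against GV, 5 were higher with either pseudocount, 0 with the median gene at 0, 5 past 1.5-fold and 0 past 3-fold, and 5 were lower for a mean of at least 5 FPKM and 7 past 3-fold. In TubA-10 against MII, 1 and 2 were lower with 0.1 and 0.01. In TubA-20 against MII, 4 were lower with either pseudocount, 1 with equal *Gapdh* and 6 past 1.5-fold, where 1 was higher. In TubA-20 against TubA-10, 1 was higher with 0.01 and 2 past 1.5-fold, and 6, 7 and 5 were lower with 0.1, 0.01 and equal *Gapdh*, 10 past 1.5-fold and 0 past 3-fold. The cause of these shifts was not tested, apart from the thresholds and minimum means, which act by construction. CPE-like motifs were in 8 members within the last 100 bases instead of 15.

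The sign of the difference from GV turned with scaling for 4 members in MII (*Iars2*, *Lars2*, *Nars* and *Wars*), 3 in TubA-10 (*Gars*, *Iars* and *Lars2*) and 3 in TubA-20 (*Kars*, *Lars2* and *Nars*), and no called member changed sign. Values below 1 FPKM rest on few fragments, and their error could not be estimated without counts.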
